A study of Arabidopsis thaliana with 36 samples.

Results

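The arrays of anac017-1 and of rao2 sprayed with antimycin A were set directly against each other. They were chosen by their labelled genotype and spray and numbered 6, with 3 for each mutant, of 36 arrays in all. The series profiled green leaf tissue of Arabidopsis thaliana seedlings, ecotype Columbia, on one-colour Affymetrix ATH1 arrays, 1 RNA sample an array. It crossed 4 genotypes with 3 sprays (antimycin A, hydrogen peroxide and deionised water), with 3 arrays in each of 12 groups. The genotypes were wild type, rao2, anac017-1 and anac017-2. The anac017-2 arrays were in no contrast given here, but they entered the variance shared in the fit of all 36 arrays. The anac017-1 group is labelled as a T-DNA knock-out of ANAC017, and its seedlings were 14 days old, sprayed with 50 µM antimycin A and collected 3 h later. The rao2 group had the same age, spray and time, and is labelled as an EMS mutant from a forward genetic screen. Wild type Columbia seedlings under the same spray stand beside both mutants for orientation. No source used here says whether the replicates came from separate plates or plantings. The p-values therefore measure the spread between arrays within the 12 groups, which may be technical. Each mutant is represented by a line of its own, so effects of the ANAC017 alleles and of other differences between the lines cannot be told apart.

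Antimycin A blocks electron transfer at complex III of the mitochondrial respiratory chain. Plants answer such a block by changing nuclear transcription, a response called mitochondrial retrograde signalling. ANAC017 is a membrane-bound transcription factor of the NAC family that is released from the endoplasmic reticulum and acts in this response, and its best known targets include alternative respiratory enzymes and other genes of the mitochondrial dysfunction stimulon. The transcripts of ANAC017, ANAC016, ANAC013 and AOX1A were not analysed here, so the targeted gene could not be used to check the labels.

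Array medians ran from 77.7 to 83.6 over the series in the deposited linear intensity. Correlations across all probe sets ran from 0.991 to 0.993 among the 3 anac017-1 arrays and from 0.986 to 0.988 among the 3 rao2 arrays, against 0.981 to 0.987 between the mutants. The log2 signal at the 3′ end of 3 control transcripts exceeded that at their 5′ end by 3.48 ± 0.20 in anac017-1 and by 3.38 ± 0.17 in rao2 (SD, n = 3 each), a measure of RNA integrity that overlapped between the mutants. The wild type arrays of antimycin A ran from 3.05 to 3.18, below all those of anac017-1 (3.29 to 3.69) and rao2 (3.21 to 3.55). The part of RNA integrity in the differences from wild type was not tested. The rao2 array of replicate 1 stood apart in the stimulon genes. It was the highest of the 3 rao2 arrays in 12 of 12 measured stimulon members, against 3989 of 13333 named genes in all, and exceeded every anac017-1 array in 11 of the 12. It was not raised across the antimycin A response as a whole. Over 949 probe sets that rose by at least 2 on the log2 scale in wild type, it lay a median of -0.17 from the mean of the other rao2 arrays, with 78 probe sets at least 1 higher and 60 at least 1 lower. The other rao2 arrays also deviated there. Replicate 2 lay a median of -0.25 from the other rao2 arrays, with 134 probe sets at least 1 lower. Replicate 3 lay 0.4 from them, with 139 at least 1 higher. Results that rest on rao2 replicate 1 are given with and without it, because of the stimulon genes.

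Under antimycin A the mutants differed at 3608 of 22746 probe sets, or 15.9% of those tested, by limma at a Benjamini-Hochberg adjusted p under 0.05. Of these, 1699 were higher in anac017-1 (7.47%) and 1909 were lower (8.39%). Most differences were small: 349 probe sets were higher and 257 lower by at least 1 on the log2 scale, and the median absolute difference over all probe sets was 0.14. The median of all differences was -0.018. The values of the mutants did not overlap at 1558 of the 1699 and at 1600 of the 1909, against 6210 of all 22746. The fit of all 36 arrays shares 1 variance per probe set over the 12 groups, and the mean SD within a group was 0.18 for anac017-1 and 0.212 for rao2 under antimycin A, against 0.144 for anac017-1 and 0.171 for rao2 in water. With only the 6 arrays compared, 1058 probe sets were called, 650 higher and 408 lower, of which 942 were also called in the same direction with all arrays. Without rao2 replicate 1 the calls numbered 1317 higher and 1475 lower.

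The largest excess in anac017-1 among the named genes was that of AT2G20870. This gene, which encodes a putative cell wall protein, measured 8.94, 7.97 and 7.89 log2 units in anac017-1 and 2.41, 2.12 and 2.45 in rao2, with 3.20 ± 0.43 in wild type (SD, n = 3). All 3 rao2 values were not above background, defined as the lower quartile of each array, so the excess was at least 5.77 (adjusted p = 2.66e-07). AT5G62080, a lipid-transfer-type protein, measured 7.62, 6.75 and 5.42 in anac017-1 and 2.05, 2.04 and 2.07 in rao2. It was at background on every rao2 and wild type array and at least 4.10 higher in anac017-1 (adjusted p = 2.1e-07). AT1G53100, of the core-2/I-branching glycosyltransferase family, measured 5.55, 6.04 and 6.43 in anac017-1 and 2.06, 2.66 and 3.52 in rao2. The groups did not overlap, and the difference was 3.26 ± 0.20 (standard error of the fit, adjusted p = 3.42e-11). The shared variance includes groups in which this gene was at background, so that error can understate the spread between the arrays compared.

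AT1G44970, a class III peroxidase, measured 6.78, 4.86 and 5.45 in anac017-1 and 3.17, 2.26 and 2.34 in rao2, a difference of 3.11 ± 0.56. AT5G46295, with no role given here, measured 7.22, 7.77 and 7.61 in anac017-1 and 4.41, 3.91 and 5.53 in rao2, a difference of 2.92 ± 0.28. All 3 anac017-1 arrays lay above all rao2 arrays for both genes. HIS1-3, a linker histone variant known to be induced by drought, measured 10.10, 9.99 and 9.82 in anac017-1 and 6.71, 8.41 and 7.73 in rao2, with 6.41 ± 0.21 in wild type. It was 2.35 ± 0.55 higher in anac017-1 (adjusted p = 0.00376). AT5G47600, of the HSP20-like chaperone family, was 2.65 ± 0.48 higher and AT5G08510, a pentatricopeptide repeat protein, 2.61 ± 0.26 higher. AT5G61570, a protein kinase, was 2.34 ± 0.45 higher and AT3G29375 2.38 ± 0.21 higher. AT3G20340 was 2.38 ± 0.62 higher and AT1G49450, a WD40 repeat protein, 2.54 ± 0.76 higher. Without rao2 replicate 1 the last pair were not called, at 2.01 (adjusted p = 0.0555) for AT3G20340 and 2.20 (adjusted p = 0.101) for AT1G49450, and AT1G49450 was also lost without anac017-1 replicate 2 (adjusted p = 0.127). In the fit of only the 6 arrays compared, AT1G44970, AT5G47600, AT5G08510, AT1G49450, HIS1-3 and AT5G61570 were not called, at adjusted p from 0.052 for AT1G44970 to 0.173 for AT5G61570.

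**Figure D1:**
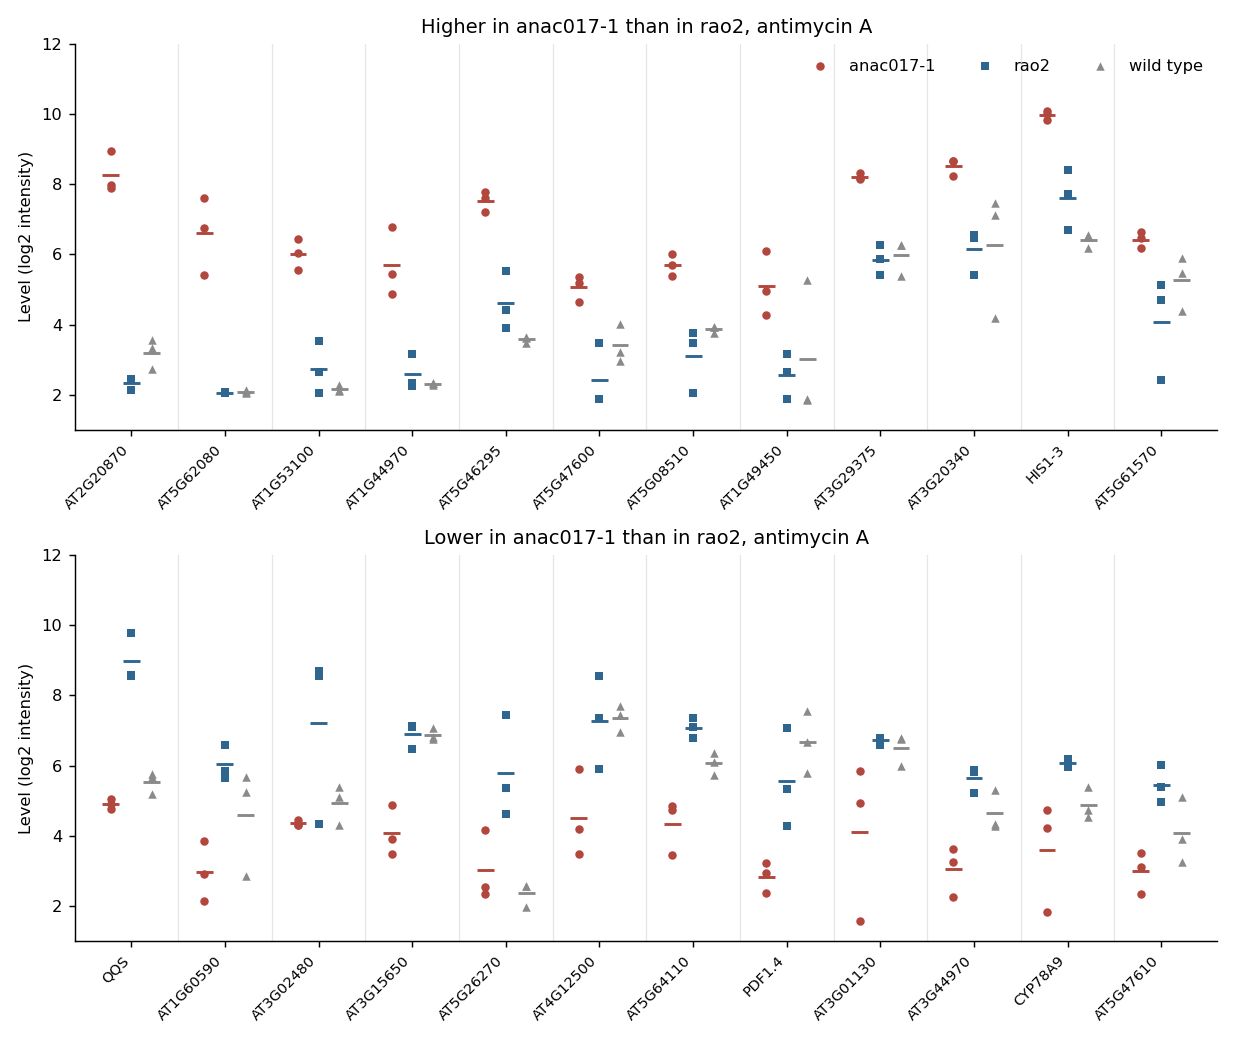
Log2 intensity of the 12 genes with the largest positive and the 12 with the largest negative called difference between the mutants under antimycin A, by array; horizontal bars are means of 3 arrays of anac017-1, rao2 and wild type. AT2G20870 and AT5G62080 were near 2 on all rao2 arrays, and QQS was between 8.56 and 9.78 in rao2 against 4.76 to 5.04 in anac017-1.

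The gene lowest in anac017-1 relative to rao2 was QQS, an orphan gene of Arabidopsis known to influence the allocation of carbon and nitrogen between starch and protein. It measured 4.90, 4.76 and 5.04 in anac017-1 and 8.59, 8.56 and 9.78 in rao2, with 5.67, 5.19 and 5.76 in wild type. The anac017-1 arrays lay just under the wild type arrays and the rao2 arrays far above both. The difference was -4.07 ± 0.59 (adjusted p = 3.01e-05), and QQS was 3.44 ± 0.59 higher in rao2 than in wild type.

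Other genes were lower in anac017-1 as well. AT1G60590, a pectin lyase-like protein, measured 2.13, 2.91 and 3.84 in anac017-1 and 5.86, 6.60 and 5.65 in rao2, a difference of -3.08 ± 0.68. AT5G64110, a class III peroxidase, measured 4.85, 3.45 and 4.74 in anac017-1 and 6.79, 7.37 and 7.10 in rao2, a difference of -2.74 ± 0.39. Neither gene overlapped between the mutants. PDF1.4, a defensin-like protein, measured 2.37, 3.21 and 2.93 in anac017-1 and 5.33, 4.27 and 7.06 in rao2, with 6.67 ± 0.90 in wild type. The difference between the mutants was -2.72 ± 0.59, and both rao2 and wild type lay above all anac017-1 arrays. AT4G12500, a lipid-transfer-type protein, differed by -2.75 ± 0.93, with an adjusted p of 0.0442. That call was lost without rao2 replicate 1 (adjusted p = 0.101), rao2 replicate 3 (0.188), anac017-1 replicate 1 (0.169) or anac017-1 replicate 2 (0.125).

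AT3G15650, of the alpha/beta-hydrolase fold, measured 3.47, 3.91 and 4.88 in anac017-1 and 6.47, 7.10 and 7.12 in rao2, with 6.88 ± 0.16 in wild type. Its difference was -2.81 ± 0.53. The cytochrome P450 genes AT3G44970 and CYP78A9 differed by -2.59 ± 0.51 and by -2.47 ± 0.48. AT5G47610, a RING-type protein, differed by -2.46 ± 0.42, AT5G26270 by -2.79 ± 0.61 and AT3G01130 by -2.60 ± 0.54. AT3G02480, a late embryogenesis abundant protein, measured 4.31, 4.45 and 4.31 in anac017-1 and 4.34, 8.71 and 8.56 in rao2. The groups overlapped, since rao2 replicate 1 lay among the anac017-1 arrays. Its difference was -2.85 ± 0.92 with that array (adjusted p = 0.0343) and -4.28 without it (adjusted p = 0.001). Leaving out any of the other 5 arrays removed the call, at adjusted p from 0.0738 to 0.192. On the 6 arrays alone, AT3G02480, AT4G12500, AT5G26270, AT3G01130, PDF1.4 and CYP78A9 were not called, at adjusted p from 0.127 for PDF1.4 to 0.302 for AT3G01130.

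The mitochondrial dysfunction stimulon is the set of nuclear genes that rise together when mitochondria are impaired, and many of its members are direct or indirect targets of ANAC017. Of 25 listed members 12 were measured, and what follows covers only these. Of the 12 measured members, 0 were higher and 1 was lower in anac017-1, with a median difference of -0.27. The median was -0.02 over all 13333 named genes, of which 7.09% were higher and 7.69% lower (14.8% called). The count of 1 in 12 is near that share. At an unadjusted p under 0.05, 2 of the 12 differed. The call was AT5G09570, a small mitochondrial twin CX9C-type protein, which measured 3.10, 4.30 and 3.97 in anac017-1 and 7.20, 4.59 and 5.90 in rao2, a difference of -2.11 ± 0.65 (adjusted p = 0.0275). Without rao2 replicate 1 it was -1.46 (adjusted p = 0.191), and the call was also lost without rao2 replicate 3 (0.0563) or anac017-1 replicate 1 (0.115) or 3 (0.0521). Fitted on the 6 arrays compared, 0 of the 12 were called.

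The other members showed how far that array lay from the rest. AT2G04050, a MATE-type transporter, measured 4.10, 4.08 and 4.31 in anac017-1 and 10.37, 2.69 and 5.58 in rao2, against 12.43, 11.70 and 12.43 in wild type. AT2G21640, a widely used marker of oxidative stress, measured 7.70, 7.82 and 7.85 in anac017-1 and 10.87, 7.24 and 7.64 in rao2, with 12.75, 12.45 and 12.83 in wild type. In both genes rao2 replicate 1 lay between the anac017-1 and the wild type arrays, while the other rao2 arrays lay on either side of anac017-1 or just below it. AT2G32020, a GNAT-type acetyltransferase, measured 7.53, 8.35 and 8.07 in anac017-1 and 9.39, 4.62 and 6.18 in rao2, with 11.94, 11.92 and 12.08 in wild type.

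Without rao2 replicate 1, 2 of the 12 stimulon members were higher in anac017-1, 0 were lower and the median difference was 0.22. These were AT2G32020, higher by 2.58 (adjusted p = 0.00221), and AT2G41730, higher by 1.15 (adjusted p = 0.0455). Without rao2 replicate 2, by contrast, 4 members were lower and 0 higher. The direction between the mutants over the stimulon thus turned with 1 rao2 array, and no direction is given here. Each mutant had its own difference from wild type, in comparisons that share the 3 wild type arrays. AT2G04050 was -8.02 in anac017-1 and -5.98 in rao2 relative to wild type, and without rao2 replicate 1 the rao2 value was -8.06. AT5G51440, a mitochondrial small heat shock protein, was -4.93 in anac017-1 and -4.29 in rao2, and without that array -5.19 in rao2. NDB4, an alternative NAD(P)H dehydrogenase of the inner membrane, was not above background on any anac017-1 array or on rao2 replicates 2 and 3, and measured 3.00 on rao2 replicate 1 against 6.42 ± 0.39 in wild type.

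**Figure D2:**
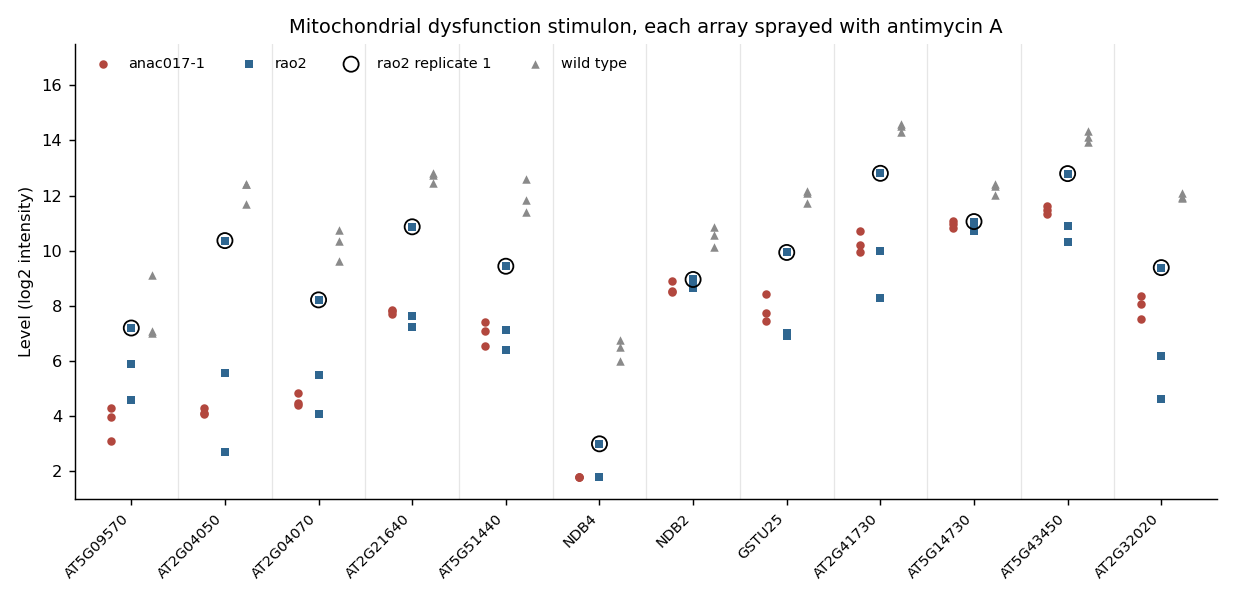
Log2 intensity of the 12 measured stimulon members on each antimycin A array of anac017-1, rao2 and wild type; the open circle marks rao2 replicate 1. That array was the highest of the 3 rao2 arrays in every member, and lay above all anac017-1 arrays in 11.

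Of 5 measured genes of the alternative respiratory pathway, all of them type II NAD(P)H dehydrogenases, 0 were called in either direction, and their differences ran from -0.41 to 0.03. Their intervals ran from -0.98 to 0.44. NDB2, which is known to rise with alternative oxidase, measured 8.52, 8.91 and 8.56 in anac017-1 and 8.96, 8.64 and 8.77 in rao2, with 10.56, 10.13 and 10.87 in wild type. The mutants overlapped and both lay below all wild type arrays. Among 13 nuclear subunits of oxidative phosphorylation, 1 was higher and 4 were lower in anac017-1, with a median of -0.19, against 7.09% higher and 7.69% lower over all named genes. AT3G15640, a subunit of cytochrome c oxidase, was 0.82 ± 0.19 higher. SDH1-1, the flavoprotein of complex II, measured 10.33, 10.36 and 10.21 in anac017-1 and 10.66, 10.56 and 10.70 in rao2, and differed by -0.34 ± 0.08. AT1G51980, of the processing peptidase in complex III, differed by -0.33 ± 0.07 and AT5G40810, cytochrome c1 of the same complex, by -0.31 ± 0.06. With only the 6 arrays compared, 0 were higher and 3 lower, with AT3G15640 at an adjusted p of 0.194 and SDH1-1 at 0.0546.

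Among 8 measured antioxidant enzymes, 1 was higher and 3 were lower in anac017-1, against 7.09% higher and 7.69% lower over all named genes. GR, which is the locus AT3G54660 and encodes the organellar glutathione reductase, measured 11.02, 10.83 and 10.41 in anac017-1 and 9.92, 10.04 and 9.97 in rao2, with 9.96 ± 0.05 in wild type. It was 0.78 ± 0.11 higher in anac017-1 (adjusted p = 2.17e-05), and the rao2 arrays overlapped those of wild type. GR1, the cytosolic glutathione reductase, measured 9.40, 9.51 and 9.62 in anac017-1 and 9.86, 9.89 and 10.06 in rao2. It differed by -0.42 ± 0.11 (adjusted p = 0.0082), the opposite direction to the organellar enzyme. In the fit of only the 6 arrays compared, neither was called, at an adjusted p of 0.0703 for GR and 0.064 for GR1. The chloroplast peroxiredoxins AT3G52960 and AT3G11630 differed by -0.61 ± 0.13 and by -0.41 ± 0.07. Of 14 measured glutathione transferases, 1 was higher, GSTU16 by 0.49 ± 0.13, and 2 were lower, GSTU20 by -1.29 ± 0.34 and GSTU18 by -0.78 ± 0.22. The calls of GSTU20 and GSTU18 were lost without rao2 replicate 2 (adjusted p = 0.0771 and 0.0758) or anac017-1 replicate 2 (0.0893 and 0.0764), and that of GSTU16 without rao2 replicate 3 (0.0504) or anac017-1 replicate 1 (0.0547). Of 51 measured genes with a UGT symbol or synonym, the usual name of UDP-glycosyltransferases, which attach sugars to hormones and secondary metabolites, 4 were higher and 1 was lower. That is below the 14.8% called over all named genes, and family members without such a symbol, such as AT4G15260, are not among the 51. UGT76E11 was higher by 1.08 ± 0.24, GT72B1 by 0.83 ± 0.17 and UGT84A3 by 0.80 ± 0.24. The call of UGT84A3 was lost without rao2 replicate 1 (0.095), rao2 replicate 3 (0.0837) or anac017-1 replicate 2 (0.0997).

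Flavonoid genes were lower in anac017-1 than in rao2 in 3 of 5 measured members, with a median of -1.38 and 0 members higher. Over all named genes 7.69% were lower and 7.09% higher. With only the 6 arrays compared, 2 of the 5 were lower. DFR, which makes leucoanthocyanidins on the way to anthocyanin, measured 5.71, 5.95 and 6.03 in anac017-1 and 8.10, 8.67 and 8.16 in rao2, with 7.82, 6.63 and 5.54 in wild type. The mutants did not overlap, the wild type arrays spanned nearly the whole distance between them, and the difference was -2.41 ± 0.69 (adjusted p = 0.0165). CHIL, a chalcone isomerase-like protein, measured 3.23, 1.70 and 3.34 in anac017-1 and 4.76, 5.35 and 3.31 in rao2. These groups overlapped, and the difference of -1.72 ± 0.55 was not called without rao2 replicate 1 (adjusted p = 0.109). UGT78D2, a flavonoid 3-O-glucosyltransferase, differed by -0.56 ± 0.17. Without rao2 replicate 2, 0 of the 5 were called and the median was -0.71, with DFR at -2.23 (adjusted p = 0.0613), UGT78D2 at -0.47 (0.102) and CHIL at -1.28 (0.187). Leaving out anac017-1 replicate 2 also removed UGT78D2 (0.0572) and CHIL (0.221), and leaving out anac017-1 replicate 1 removed UGT78D2 (0.0604).

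Photosynthesis genes, which define the labelled green leaf tissue, were high in both mutants, with summed linear levels of the 8 measured members from 98700 to 113000 in anac017-1 and from 105000 to 115000 in rao2. Of the 8, 0 were higher and 2 were lower in anac017-1. LHCB4.3, a minor antenna protein of photosystem II, measured 7.72, 7.77 and 7.26 in anac017-1 and 9.56, 9.60 and 9.82 in rao2, a difference of -2.08 ± 0.26 (adjusted p = 4.97e-06). Its paralogs LHCB4.1 and LHCB4.2 differed by 0.02 and -0.22, neither called. PSBY, a small subunit of photosystem II, differed by -0.25 ± 0.08, a call lost without rao2 replicate 1 (adjusted p = 0.095), rao2 replicate 2 (0.0988) or anac017-1 replicate 3 (0.183). Of 69 plastid-encoded genes 3 were higher and 2 lower, or 7.25%, against 14.8% called over all named genes. The call of rpoC2 was lost whichever antimycin A array of the mutants was left out, at adjusted p from 0.0526 to 0.11. That of ndhK was lost without each of them except anac017-1 replicate 2, at adjusted p from 0.0669 to 0.114. That of rps18 was lost without rao2 replicate 1 (0.0882) or 3 (0.0741) or anac017-1 replicate 2 (0.305).

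Markers of other tissues were also read, against 14.8% called over all named genes. Of 3 measured root markers 0 were called, EXPA7 was at background on all 6 arrays, and the summed levels ran from 694 to 2360 in anac017-1 and from 871 to 4110 in rao2, nearly all of it PYK10. Of 3 stomatal lineage markers 1 was lower, FMA by -0.53 ± 0.17, MUTE was at background on all 6 arrays, and the sums ran from 55.6 to 81.2 in anac017-1 and from 88.3 to 102 in rao2. The call of FMA was lost without rao2 replicate 2 (0.112) or 3 (0.0649) or anac017-1 replicate 2 (0.201) or 3 (0.0598). The meristem marker CLV3 was at background on all 6 arrays. The part of tissue makeup in the differences was not tested, and in bulk leaf RNA fewer cells of a type and less RNA per cell cannot be told apart.

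Of 15 measured auxin response genes 2 were higher and 0 lower. Over all named genes 7.09% were higher and 7.69% lower (14.8% called). The counts of the auxin, expansin, WRKY and CYP lists were near or below that share. IAA20, an Aux/IAA repressor, measured 3.47, 5.18 and 4.96 in anac017-1 and 2.07, 2.43 and 2.22 in rao2, all 3 of the rao2 values at background, and was at least 2.04 higher (adjusted p = 7.06e-07). IAA30, of the same family, was 1.19 ± 0.28 higher, and without rao2 replicate 1 by 0.74 (adjusted p = 0.0532). GI, a component of the circadian clock, was 0.90 ± 0.16 higher. It was the only clock gene of 17 listed that the gene table tied to a probe set. On the 6 arrays alone, IAA20, IAA30 and GI were not called, at an adjusted p of 0.0707, 0.22 and 0.0659. Of 29 measured expansins and xyloglucan enzymes, which loosen cell walls, 3 were lower and 0 higher: EXLB1 by -1.29 ± 0.33, EXPA9 by -1.15 ± 0.35 and XTH32 by -0.81 ± 0.22. With only the 6 arrays compared, 1 of the 29 was higher and 0 were lower. Without rao2 replicate 1 only XTH32 was called (EXPA9 at -0.70, adjusted p = 0.201, and EXLB1 at 0.0542), and without rao2 replicate 2 or anac017-1 replicate 2 none of the 3, with adjusted p from 0.0522 to 0.117. EXPA9 was also lost without anac017-1 replicate 1 (0.0794). Of 7 measured WRKY factors 1 was lower, WRKY20 by -0.44 ± 0.08. Of 28 measured genes with a CYP symbol or synonym, which name mostly cytochromes P450 but also some cyclophilins, 1 was higher, the P450 CYP71B35 by 0.62 ± 0.20. Lower were 2, the P450 CYP78A9 and the cyclophilin CYP59, by -0.29, and AT3G44970, with no such symbol, is not among the 28. The call of CYP71B35 was lost without rao2 replicate 1 (0.0533) or 3 (0.169) or anac017-1 replicate 1 (0.174) or 3 (0.0651).

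In several lists limma called 0 members. They were autophagy with 10 measured members and differences from -0.30 to 0.11, hypoxia with 8 from -0.53 to 0.86, the reactive oxygen hallmark with 5 from -0.79 to 0.38, and the unfolded protein response with 3 from -0.31 to 0.02. At an unadjusted p under 0.05 these had 1, 0, 0 and 0 members, and the fit of only the 6 arrays compared called 0 in each. The lists of cell division (4 measured), abscisic acid (3), glucosinolates (3), jasmonate (2) and salicylate (2) also had 0 calls, with 1, 0, 1, 1 and 0 members at an unadjusted p under 0.05. PDF1.2, a defensin induced by jasmonate, differed by -2.46 ± 0.87 (adjusted p = 0.0547). Over all named genes 14.8% were called. Of 14 measured heat shock genes 0 were higher and 1 was lower, the HSP70 gene AT3G09440 by -0.73 ± 0.22. That call was lost without rao2 replicate 2 (0.0644) or 3 (0.111) or anac017-1 replicate 1 (0.0719) or 2 (0.0504). The intervals of the heat shock genes ran from -1.76 to 1.53.

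**Figure D3:**
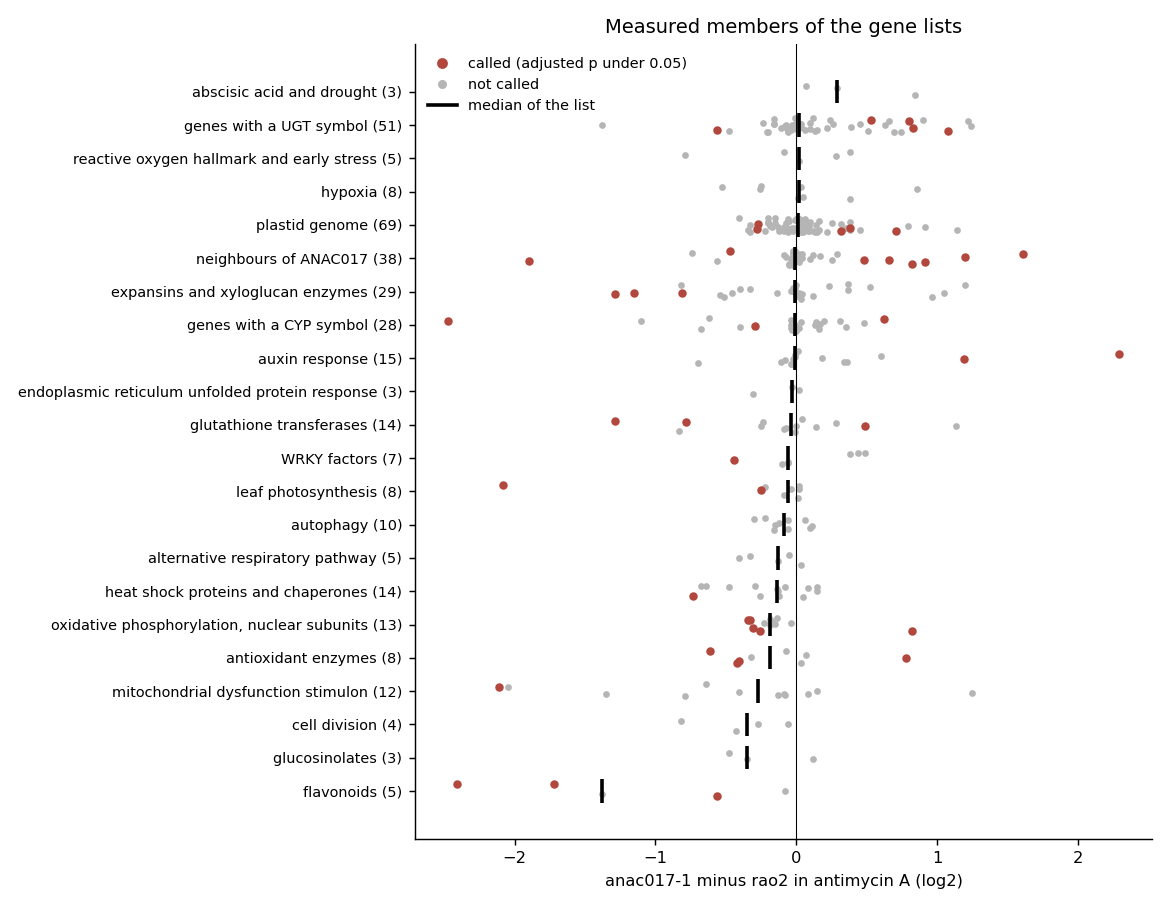
Difference anac017-1 minus rao2 under antimycin A (log2) of each measured member of the gene lists with at least 3 measured members, tissue markers left out; numbers in parentheses count members, red points were called and black bars are medians. Flavonoid genes had a median of -1.38, and the medians of the other lists drawn ran between -0.35 and 0.29.

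The same contrast in the water and the hydrogen peroxide arrays, which share no array with antimycin A, called fewer probe sets. In water 1278 were called (5.62%), 830 higher (3.65%) and 448 lower (1.97%) in anac017-1. In hydrogen peroxide 1285 were called (5.65%), 836 higher (3.68%) and 449 lower (1.97%). Of the 1699 probe sets higher under antimycin A, 509 were also higher in water, which was 30% of the antimycin A list and 61.3% of the water list. Of the 1909 lower ones 210 were also lower in water, or 11% and 46.9% of the lists, and 6 and 0 were called in the opposite direction in water. Overlaps with hydrogen peroxide were 520 higher (30.6% and 62.2%) and 224 lower (11.7% and 49.9%). In all 3 sprays 482 probe sets (2.12%) were called in the same direction, 385 higher (1.69%) and 97 lower (0.426%). When the antimycin A calls came from the 6 arrays alone, there were 268. Called in antimycin A alone were 1046 higher and 1564 lower, a count that does not show that the difference depended on the spray.

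**Figure D4:**
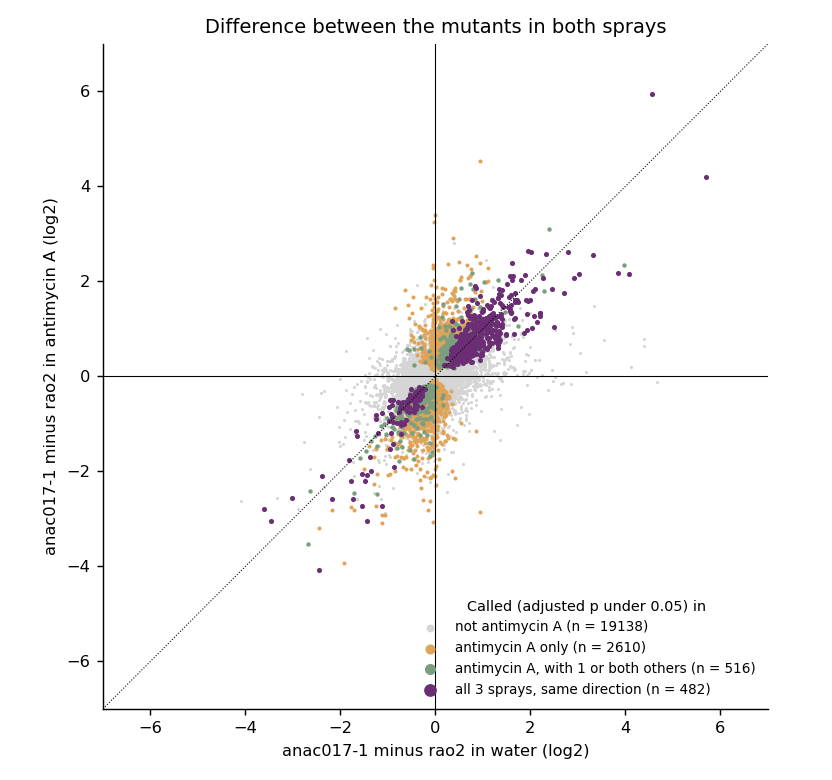
Difference anac017-1 minus rao2 of 22746 probe sets in antimycin A against the same in water (log2), coloured by the sprays in which limma called them; the dotted line marks equal differences. The 482 probe sets called in all 3 sprays had the same sign on both axes, 385 positive and 97 negative.

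Genes called in all 3 sprays were chosen for naming after their values were seen, by the largest smallest difference over the sprays, with a few singled out for their roles, and their values are a description. AT2G20870 was at least 5.77 higher in antimycin A, 4.38 in hydrogen peroxide and 4.56 in water. QQS differed by -4.07 in antimycin A, -3.99 in hydrogen peroxide and -2.44 in water. In water QQS measured 4.94, 5.18 and 5.86 in anac017-1, 7.35, 7.37 and 8.60 in rao2, and 4.57, 4.09 and 5.25 in wild type, so the rao2 arrays alone stood above the others. AT5G23380 measured 6.99, 7.09 and 7.16 in anac017-1 and 5.02, 4.59 and 5.09 in rao2 under antimycin A, and differed by 2.18, 2.80 and 3.84 in antimycin A, hydrogen peroxide and water. AT4G15260, of the UDP-glycosyltransferase family, differed by 2.16, 2.35 and 3.03 in the same order, and AT1G54260 by 2.14, 1.87 and 1.88. AT4G16920, a TIR-type disease resistance protein, differed by 1.80, 1.57 and 2.06, and SWEET1, a sugar transporter, by -2.21, -1.40 and -1.48.

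From the 241 higher and 45 lower named genes called in all 3 sprays, a few were singled out, after their values were seen, for known roles in translation, RNA or organelle genomes. AT1G36730, which encodes translation initiation factor eIF5, measured 11.09, 11.05 and 11.27 in anac017-1 and 10.04, 9.83 and 9.84 in rao2, with 10.08, 10.20 and 9.86 in wild type. It differed by 1.23 ± 0.08 in antimycin A, 1.26 ± 0.08 in hydrogen peroxide and 1.16 ± 0.08 in water, and rao2 lay close to wild type in each spray. AT1G77840, another eIF5 gene, differed by 0.42, 1.02 and 0.75 in the same order. Its call under antimycin A was lost without rao2 replicate 2 (0.102) or 3 (0.127) or anac017-1 replicate 1 (0.0835) or 2 (0.0618). UPF3, a factor of nonsense-mediated mRNA decay, measured 8.44, 8.46 and 8.62 in anac017-1 and 7.82, 7.72 and 7.98 in rao2, with 7.97, 7.93 and 8.05 in wild type, and differed by 0.66, 0.79 and 0.55. CPUORF47, a gene named for a conserved upstream open reading frame, differed by 1.56, 2.00 and 1.67. OSB1, which restrains recombination of the mitochondrial genome, differed by 1.20, 1.18 and 1.66. Of the pentatricopeptide repeat genes, which act on organelle RNA, AT1G18485 differed by 1.22, 0.77 and 0.73, and AT2G36240 by 1.04, 0.92 and 0.88. OTP70, which takes part in chloroplast intron splicing, was at background on all 3 rao2 arrays of antimycin A and at least 0.69 higher there in anac017-1, a call lost without any rao2 array or anac017-1 replicate 1 or 2, at adjusted p from 0.0725 to 0.214.

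**Figure D5:**
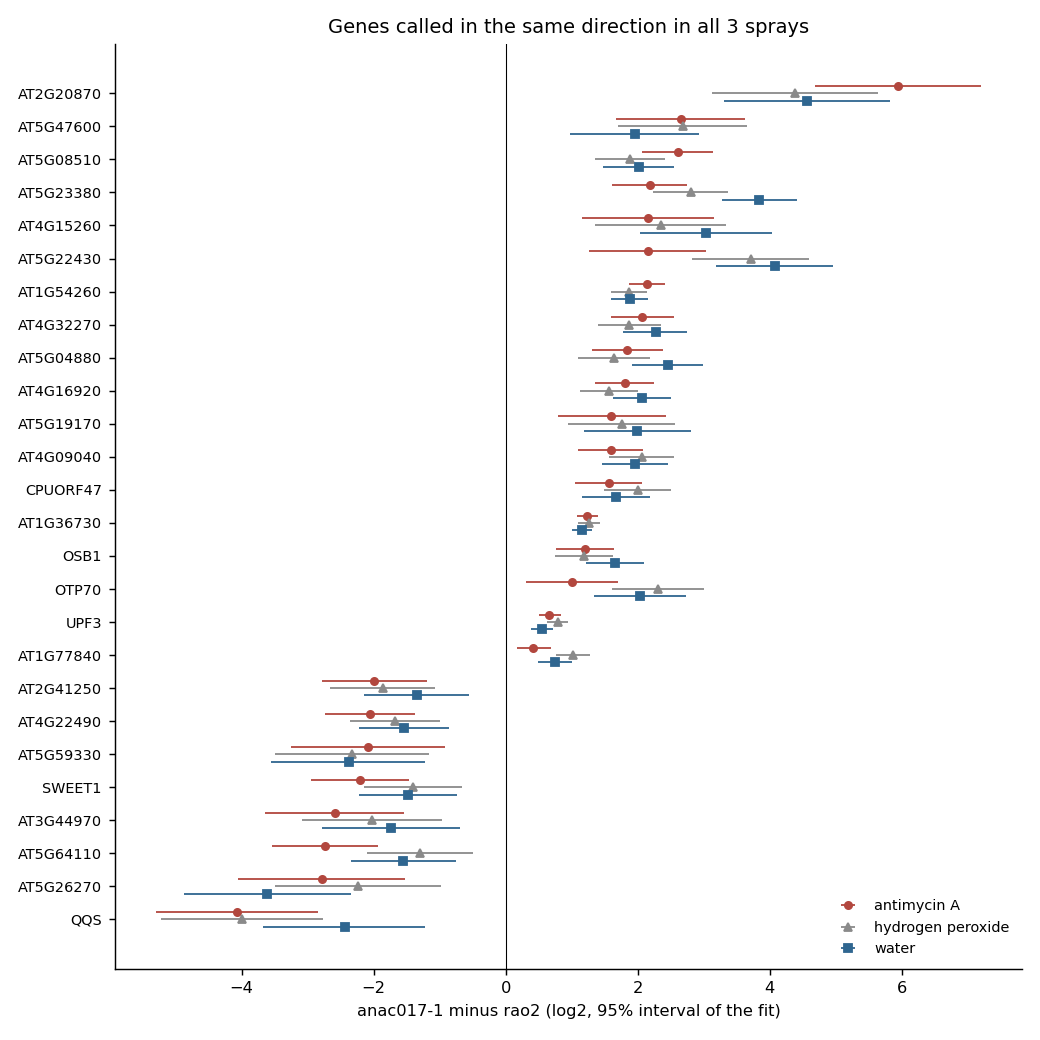
Difference anac017-1 minus rao2 (log2) in antimycin A, hydrogen peroxide and water of genes called in the same direction in all 3 sprays; points are differences of means of 3 arrays and bars the 95% interval of the fit. AT2G20870, AT5G22430 and OTP70 had rao2 at background in antimycin A, where their points are not exact differences; QQS was the lowest gene drawn in antimycin A at -4.07.

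Of 38 measured genes near ANAC017 on chromosome 1 (84 loci listed around it), 6 were higher and 2 lower in anac017-1 under antimycin A, with a median of -0.01. AT1G33811, a GDSL-type lipase, measured 7.33, 7.36 and 7.15 in anac017-1 and 9.07, 9.07 and 9.42 in rao2, with 8.10, 8.20 and 7.91 in wild type. It differed by -1.90 ± 0.13 in antimycin A (adjusted p = 2.49e-10), -1.64 in hydrogen peroxide and -0.87 in water, and wild type lay between the mutants. AT1G34570 was 1.61 ± 0.23 higher in antimycin A, AT1G34270 1.20 ± 0.29 and AT1G34470 0.91 ± 0.18. UPF3 is another of the 6. With only the 6 arrays compared, 3 were higher and 2 lower. Over named genes of chromosomes 1 to 5 the share called ran from 13.1% to 16.1%. Whether the insertion in anac017-1 or the mutations in rao2 touch these loci was not tested.

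A test of the difference itself, antimycin A minus water, called 249 probe sets (1.09%), 103 with a more positive and 146 with a more negative contrast in antimycin A. AT5G62080 was at least 4.10 higher in anac017-1 in antimycin A, against water, where 1 of the anac017-1 arrays measured 4.83 and the other 5 arrays were at background. AT1G53100 was at background on all 6 water arrays of the mutants and on all 3 wild type arrays of either spray, and above it on all 3 anac017-1 arrays of antimycin A. IAA20 was likewise at background on all 6 water arrays. CSLC12, of the cellulose synthase-like C family that makes the xyloglucan backbone, measured 6.20, 5.92 and 6.20 in anac017-1 and 4.74, 3.85 and 4.28 in rao2 under antimycin A. It was 1.82 ± 0.39 higher there and differed by -0.63 ± 0.39 in water. EXPA9, an expansin, differed by -1.15 in antimycin A and 0.86 in water. With only the arrays compared, 37 probe sets were called.

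In the opposite direction, the contrast of a few stress genes was more positive in water. AT1G71000, a DnaJ-domain protein, measured 8.45, 8.68 and 7.65 in anac017-1 and 2.94, 4.67 and 3.14 in rao2 in water, with 3.33, 4.32 and 3.91 in wild type. Under antimycin A it ran from 3.58 to 5.51 in anac017-1 and from 2.76 to 6.92 in rao2, so the mutants overlapped. The differences were 4.67 ± 0.80 in water and -0.12 ± 0.80 in antimycin A. Of the 14 measured heat shock genes 5 were higher in anac017-1 in water and 0 lower, with a median of 1.11, against 3.68% higher and 1.76% lower over all named genes in water. The test of the difference between sprays called 1 of the 14. Among stimulon members 3 of 12 were higher in water and 0 lower, with a median of 1.20. AT2G21640 measured 8.28, 8.61 and 8.32 in anac017-1 and 6.09, 6.70 and 6.49 in rao2 in water, with 7.26, 7.43 and 7.93 in wild type. It was 1.98 ± 0.49 higher in water, and its contrast under antimycin A, -0.79 ± 0.49, was 0.35 without rao2 replicate 1.

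The probe sets that separated the mutants were then read in the wild type, whose arrays the contrast did not use. Over all 22746 probe sets 17.2% rose and 26.7% fell under antimycin A in wild type, by limma at an adjusted p under 0.05. Of the 1909 probe sets lower in anac017-1 than in rao2, 63.0% fell and 8.22% rose in wild type. Of the 1699 higher ones, 35.7% rose and 25.8% fell, but without rao2 replicate 2 the shares were 29.1% risen and 31.0% fallen, and without rao2 replicate 1 31.4% and 29.4%. Of the 385 called higher in all 3 sprays 24.9% rose and 33.2% fell, and of the 97 called lower in all 3 sprays 19.6% rose and 32.0% fell. Both comparisons use 1 variance estimate for each probe set, and the median level over the 36 arrays was 8.80 for the lower and 7.79 for the higher ones, against 6.33 over all. With the 408 lower probe sets from the 6 arrays compared, 54.7% fell in wild type, and without rao2 replicate 1 the share of the lower ones was 59.1%.

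Relative to wild type under antimycin A, in comparisons that share the 3 wild type arrays, the probe sets higher in anac017-1 than in rao2 had a median of 0.48 in anac017-1 and -0.12 in rao2. Those lower had a median of -0.34 in anac017-1 and 0.11 in rao2. Over all probe sets the medians were -0.03 in anac017-1 and -0.01 in rao2. The order of the mutants within each set follows from its selection on the same arrays. AT3G29375 was 2.25 from wild type in anac017-1 and -0.13 in rao2, AT5G23380 2.40 in anac017-1 and 0.22 in rao2, and HIS1-3 3.56 in anac017-1 and 1.21 in rao2. In other genes it was rao2 that lay above wild type: QQS was -0.64 from wild type in anac017-1 and 3.44 in rao2, and AT5G26270 0.64 in anac017-1 and 3.43 in rao2.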

How the data were processed

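RNA of green leaf tissue from 36 seedling samples was hybridised to ATH1 arrays. Values are linear intensity, summarised and normalized by the authors before they were deposited; RMA and GCRMA are both listed in the submitters' processing notes, and which of them gave the values is not given in the sources used here. All tests were run on the log2 of these values. The arrays carry 22810 probe sets; 64 controls were left out, which left 22746. The gene table gave 1 gene for 13513 probe sets, several for 503 and no entry for 8730. The last 2 kinds were counted but not named, and a locus with several probe sets took the one with the highest mean. List members are called measured where the gene table tied their locus to such a probe set. Other listed genes may be on the arrays among the probe sets not named.

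The 12 group means were estimated from all 36 arrays by lmFit and eBayes of limma 3.58.1 (R 4.3.3; 24 residual and 1.28 prior degrees of freedom). A probe set was called at a p under 0.05 after Benjamini-Hochberg adjustment over the 22746 tests of each contrast. The ± beside a difference is the standard error of this fit; beside a level it is the SD. The number of arrays limits the precision. Values at or below the lower quartile of an array (2.45 to 2.56 in log2) were taken as not above background, and a difference with all 3 arrays of a mutant so low is given as a bound. The fit was tested on simulated data.

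Named were the 12 highest and 12 lowest called genes in antimycin A and 5 each way in water and for the difference between sprays. From every list came at most 4 called members, those with the largest absolute difference. Where none was called, the 2 members of lowest p were taken. The arrays compared, the gene lists and this rule were chosen with earlier results of these data known. Lists of ethylene response factors, MYB factors and the mitochondrial genome had 0 members that the gene table tied to a listed locus. This does not mean that such genes were absent from the arrays. Some probe sets with mitochondrial gene symbols were tested outside the lists. Under antimycin A ccb382 differed by -0.55 and was called, while nad4L at -0.45 and nad7 at 0.47 were not. Alternatives were quantile normalization, a replicate block, log2 of the value plus 16, trend and robust eBayes, array weights, a dim filter, only the arrays compared, an adjusted p under 0.01 and leaving out each array.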

Additional observations from a re-analysis of the deposited data

Results flagged for a closer look

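Limma's test of the difference between the antimycin A and the water contrasts was called at an adjusted p under 0.05. Of 13333 named genes, 53 had a more positive and 85 a more negative contrast in antimycin A. Listed here are the 5 largest each way, 10 in all, leaving out genes at background on all 6 antimycin A arrays of the mutants. The difference, antimycin A minus water on the log2 scale, was positive for AT5G62080 at 3.60, for AT1G53100 at 3.29, for AT5G46295 at 2.54, for CSLC12 at 2.45 and for IAA20 at 2.33. It was negative for the DnaJ-domain gene AT1G71000 at -4.79, for AT2G21640 at -2.77, for EXPA9 at -2.01, and for the pentatricopeptide repeat genes AT1G80880 at -1.84 and AT4G39530 at -1.76. For AT5G62080, AT1G53100 and IAA20 most or all water values were at background, so the sizes of these differences are not exact. The value of AT2G21640 rests in part on rao2 replicate 1 under antimycin A, which measured 10.87 against 7.24 and 7.64 on the other rao2 arrays.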

How the results depend on the processing

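In antimycin A the 3608 calls became 1058 with only the arrays compared and 1965 at an adjusted p under 0.01. In water the 1278 calls became 2751 with array weights, 558 with only the arrays compared and 627 at an adjusted p under 0.01. In hydrogen peroxide the 1285 became 2316, 569 and 628 in the same order. For the difference between antimycin A and water the 249 became 37 with only the arrays compared and 73 at an adjusted p under 0.01. Leaving out each array in turn gave 2708 to 3578 calls in antimycin A, 719 to 1103 in water and 767 to 1054 in hydrogen peroxide. It gave 127 to 427 for the difference, lowest without anac017-1 water replicate 2, highest without rao2 antimycin A replicate 3, and 400 without anac017-1 antimycin A replicate 1. The lowest count in water was without anac017-1 replicate 2 and in hydrogen peroxide without rao2 replicate 2. The 482 probe sets called in all 3 sprays became 268 with only the arrays compared in antimycin A and 435 to 456 with an antimycin A array left out, settings chosen after seeing the data. Same-numbered arrays of the mutants under antimycin A deviated from their group means with correlations of 0.005, 0.111 and 0.093, so the numbers were not taken to pair the samples. The replicate block gave 3728 calls in antimycin A, 1332 in water, 1348 in hydrogen peroxide and 266 for the difference. Of 120 named genes, 88 were called, and 0 of these changed sign under the alternatives run, while 9 of the 32 not called did in at least 1; 48 calls were lost with only the arrays compared, 11 with array weights, 3 with log2 of the value plus 16 and 1 with the replicate block. The causes of these changes were not tested, apart from fewer arrays or a stricter threshold by construction.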

Other observations

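In water, where 830 probe sets were higher and 448 lower in anac017-1 than in rao2, the named genes included a few not described above. AT1G21550, an EF-hand calcium-binding protein, was 4.13 ± 0.78 higher in anac017-1 in water and differed by 0.20 ± 0.78 in antimycin A. AT5G22430 was at background on all rao2 arrays of the 3 sprays, and at least 3.89 higher in anac017-1 in water, at least 3.51 in hydrogen peroxide and at least 1.86 in antimycin A. UF3GT, an anthocyanin glycosyltransferase, differed by -2.76 ± 0.80 in water (adjusted p = 0.0386) and by -1.38 ± 0.80 in antimycin A (adjusted p = 0.292). AT5G59330 differed by -2.38 in water, -2.33 in hydrogen peroxide and -2.09 in antimycin A. Its call under antimycin A was lost without rao2 replicate 1, at -1.84 (adjusted p = 0.0595), or anac017-1 replicate 3, at -1.51 (adjusted p = 0.0993).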
